A study of Oryza sativa Japonica Group with 14 samples.

Results

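The comparison described here sets the H3K4me3 peaks of the wild-type rice inflorescence meristem (WT IM) against the H3K27me3 peaks of the same tissue. Its members are all peaks of both deposited WT IM lists, 22183 for H3K4me3 and 11157 for H3K27me3. Together these are 33340 of the 130467 peaks in the 8 ChIP-seq lists of the series. The series also mapped both marks in SDG711 RNAi and jmj703 plants at the IM stage and in the WT shoot apical meristem (SAM), and it has 6 RNA samples that were not analysed here. WT IM was DongJin, a japonica variety, with no transgene named in the labels and grown in the field. Its apices of 1 to 2 mm were dissected by hand at the 10 to 12 leaf stage, on 21 to 24 June. The SDG711 RNAi apices, of the same size and leaf stage, carried RNA interference against a Polycomb H3K27 methyltransferase and were taken on 17 to 19 June. The jmj703 apices carried a T-DNA insertion in an H3K4 demethylase gene and were taken on the same days as WT IM. SAM apices were under 0.5 mm and came from DongJin plants at the 6 to 7 leaf stage. About 400 plants were used for all apices, so each library pools many plants and every cell type of the dissected apex.

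H3K4me3 is written at the starts of genes by Trithorax-type methyltransferases, and in plants it accompanies transcription. H3K27me3 is written by Polycomb repressive complex 2 and spreads over whole genes that are kept silent, among them many regulators of flower and meristem identity. Regions with both marks are called bivalent in animal stem cells, where they sit at developmental genes. In a tissue that mixes cell types, the marks may also come from different cells.

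Each mark had 1 library in WT IM, so no spread between replicates exists and no difference below was tested. The H3K4me3 library had 18452560 tags and the H3K27me3 library 22887617. Shares carry 95% Wilson intervals and medians 95% order-statistic intervals. Both cover counting error over peaks only, and neighbouring peaks are not independent. Peaks overlapped where they shared at least 1 bp. Tag density is the number of tags in a peak per kb of its length and per 1000000 tags of its library, and tags spread evenly over the effective genome of 401 Mb would give 2.49. Density ratios between marks compare libraries made with different antibodies and do not measure relative amounts of the marks. The sources used here give no genome build for the positions, so they are printed as deposited and no gene or sequence is named. The tissue label was not checked against marker genes for the same reason.

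Most peaks of either mark stood alone in WT IM. An H3K27me3 peak overlapped 2889 of the 22183 H3K4me3 peaks (13.02%, interval 12.6 to 13.5%), and an H3K4me3 peak overlapped 2882 of the 11157 H3K27me3 peaks (25.8%, interval 25.03 to 26.7%). With only peaks of p at most 1e-10 in both lists, these shares were 6.28% of H3K4me3 peaks (1250 of 19897) and 17.6% of H3K27me3 peaks. The peaks met in 2910 pairs, of which 2812 were one to one. Only 21 H3K4me3 peaks reached 2 H3K27me3 peaks, 28 H3K27me3 peaks reached 2 H3K4me3 peaks, and no peak had more than 2 partners. The sequence under both marks came to 3.23 Mb. This was 8.63% of the H3K4me3 sequence and 12.4% of the H3K27me3 sequence, whereas H3K27me3 covered 6.52% and H3K4me3 covered 9.35% of the effective genome. Both-mark peaks held 16.2% of the tags in H3K4me3 peaks and 20.9% of the tags in H3K27me3 peaks.

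By their medians, overlapping H3K4me3 peaks were longer and overlapping H3K27me3 peaks shorter than those alone. H3K4me3 peaks with both marks had a median length of 1736 bp (interval 1706 to 1762), against 1557 bp alone (interval 1550 to 1563). H3K27me3 peaks with both marks had a median of 1351.5 bp (interval 1317 to 1382), against 1996 bp alone (interval 1967 to 2032). The median H3K27me3 density was 5.09 with both marks and 5.99 alone, but the median deposited fold enrichment was 3.29 in both classes. The median H3K4me3 density was 9.49 with both marks (interval 9.18 to 9.86) and 9.64 alone (interval 9.59 to 9.69). These nearly equal medians hid different spreads. The middle part of the H3K4me3 densities, from the 25th to the 75th percentile, ran from 6.03 to 14.5 with both marks and from 7.52 to 11.7 alone.

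**Figure D1:**
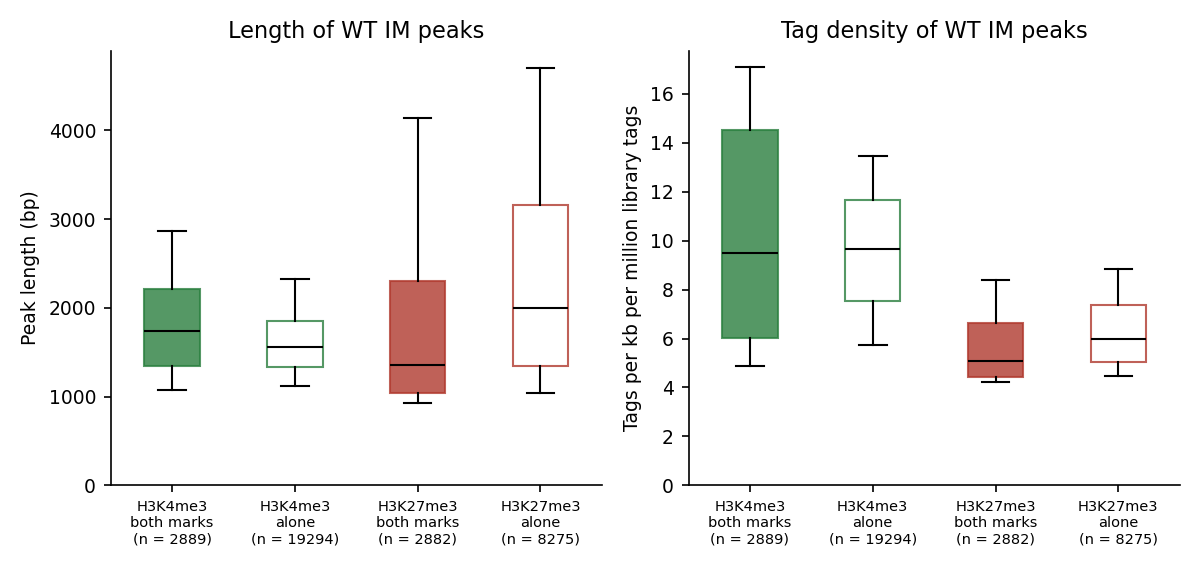
Length in bp (left) and tag density in tags per kb per 1000000 library tags (right) of WT IM peaks with both marks and alone. Boxes span the 25th to the 75th percentile, the line is the median and whiskers reach the 10th and 90th percentiles. The H3K4me3 densities have medians of 9.49 with both marks and 9.64 alone, and the box with both marks is the wider one.

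By tag density, H3K27me3 was found at the weakest and, more often still, at the strongest H3K4me3 peaks, and least often at those of intermediate density. When the H3K4me3 peaks were divided into 10 equal classes of rising density, the share with H3K27me3 was 24.8% in the lowest (551 of 2219, interval 23.1 to 26.7%). It was 4.01% in the seventh (89 of 2218, interval 3.27 to 4.91%). In the highest class, with densities from 14.01 to 24.7, it was 37.1% (824 of 2219, interval 35.1 to 39.2%). By length the H3K4me3 share was 15.9% in the shortest class (353 of 2219), lowest in the fourth, at 7.26%, and highest in the longest, at 24.2%. It thus did not simply rise with length. H3K27me3 peaks showed no such rise at the top of the density range. The share of them with H3K4me3 was 51.3% in the class of lowest density (572 of 1116, interval 48.3 to 54.2%) and lay between 17.9% and 21.8% in the 7 highest classes. It was 46.9% in the shortest class of H3K27me3 peaks and 20.5% in the longest.

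Ranked by the deposited fold enrichment, the H3K4me3 peaks gave another picture. The share with H3K27me3 was then 21.6% in the lowest class (479 of 2219) and 8.47% in the highest (188 of 2219, interval 7.38 to 9.70%), with no rise at the top. The fold sets a peak's height against its own surroundings, up to 10 kb, whereas density sets its tags against the library, so the densest H3K4me3 peaks were not those with the highest folds. For H3K27me3 the share with H3K4me3 lay between 17.7% and 31.3% over the classes of fold, in no order. The statements below on strong and weak peaks refer to density and to −log10 p.

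**Figure D2:**
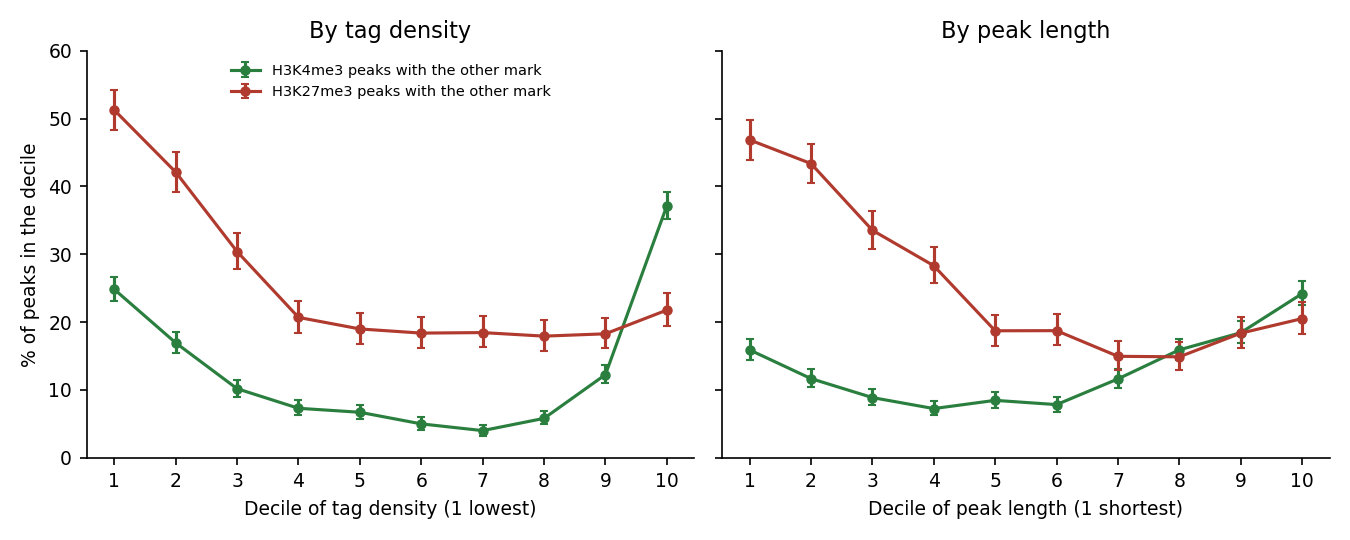
Share of WT IM peaks that overlap the other mark (in %) by class of tag density (left) and of length (right), each list divided into 10 equal classes. Bars are 95% Wilson intervals; the H3K4me3 line reaches 24.8% in the lowest and 37.1% in the highest density class, with 4.01% in the seventh.

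The geometry of the pairs separated these sites. In 1389 of the 2910 pairs the H3K27me3 peak lay wholly inside the H3K4me3 peak (47.7%, interval 45.9 to 49.5%). In 495 pairs the H3K4me3 peak lay wholly inside the H3K27me3 peak (17.0%, interval 15.7 to 18.4%). The other 1026 pairs overlapped in part (35.3%, interval 33.5 to 37.0%). With p at most 1e-10 in both lists, partial overlaps were the largest class, with 620 of 1252 pairs (49.5%). H3K27me3 inside H3K4me3 then made up 31.7% and H3K4me3 inside H3K27me3 18.8%. The median overlap was 1060 bp over all pairs (interval 1047 to 1070), and it was 1060, 1242 and 897.5 bp in these classes in the order given. The inner peak of a nested pair is the shorter one by construction, so lengths are only described. The density of a peak does not enter the classes directly, although it can vary with length.

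Where H3K27me3 lay inside H3K4me3, H3K4me3 of high density met H3K27me3 of low density. Among the 1372 such pairs that were one to one, the median H3K4me3 peak was 2034 bp long and had a density of 14.6, well above the median of 9.63 over all H3K4me3 peaks. The median H3K27me3 peak in it was 1061 bp long and had a density of 4.49, against 5.80 over all H3K27me3 peaks. The median −log10 p was 99.7 for H3K4me3 and 7.74 for H3K27me3, close to the cutoff of 1e-05. Like density, p can vary with length, on which the classes depend. By deposited fold the medians were 6.265 for H3K4me3 and 3.22 for H3K27me3, near the list medians of 5.99 and 3.29. These H3K27me3 peaks come from 1 library called without a control, so sites of the tissue and properties of that library cannot be told apart. The H3K27me3 densities lay in a narrow range, from 4.26 at the 25th to 4.81 at the 75th percentile, at the low end of their list. Of the 10 equal density classes of all H3K27me3 peaks, the lowest ran from 3.47 to 4.36 and held 499 of these pairs. The next ran from 4.36 to 4.66 and held 392. Of the 822 one-to-one pairs in the top density class of H3K4me3, 788 had this geometry (95.9%).

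Where H3K4me3 lay inside H3K27me3, the relation was turned round. In the 473 one-to-one pairs of this kind, the median H3K4me3 peak was 1244 bp long at a density of 5.36, and the median H3K27me3 peak 2885 bp long at a density of 7.00. The −log10 p medians were 11.6 for H3K4me3 and 20.5 for H3K27me3. Of the 533 one-to-one pairs in the lowest H3K4me3 density class, 265 had this geometry (49.7%) and 21 had H3K27me3 inside (3.94%). Pairs with a partial overlap, 967 of them one to one, lay between, with median densities of 7.06 for H3K4me3 and 6.18 for H3K27me3.

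The ratio of the densities, H3K4me3 over H3K27me3, therefore had more than one mode. Its median over the 2812 one-to-one pairs was 1.66 (interval 1.58 to 1.78), a value where pairs were sparser than on either side. Counted in steps of 0.2 on the log2 scale, the pairs were most numerous at ratios of 1.00 to 1.15 (243 pairs) and again at 3.03 to 3.48 (364 pairs), with only 93 pairs at 2.30 to 2.64. In the upper of these modes 357 of the 364 pairs had H3K27me3 inside H3K4me3, the class whose H3K27me3 densities lay mostly at the low end of their list. The median ratio was 3.27 (interval 3.22 to 3.30) with H3K27me3 inside, 1.13 (interval 1.10 to 1.17) with partial overlap and 0.807 (interval 0.780 to 0.833) with H3K4me3 inside. With the deposited fold enrichment in place of density the values were 1.96, 1.44 and 1.12 in the same order, so the last no longer lay below 1. Scaled to the tags inside peaks, in place of all library tags, the 3 ratios were 1.55, 0.536 and 0.382. The order of the classes was the same under these scalings, and the side of 1 on which a ratio fell was not.

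**Figure D3:**
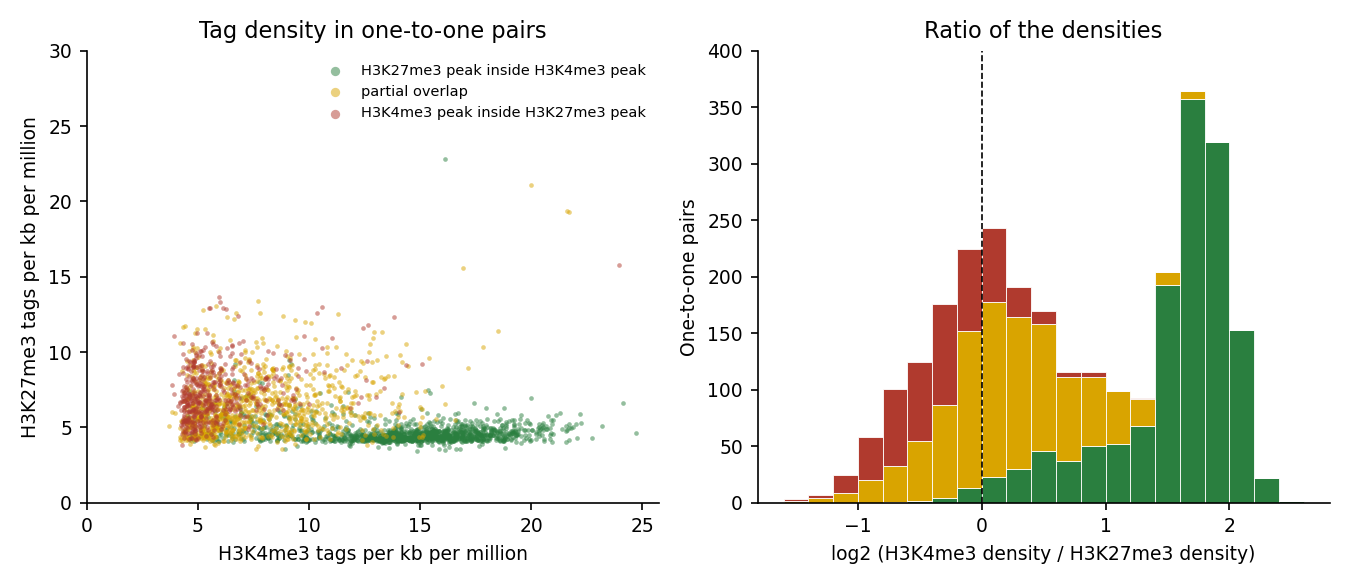
Densities of both marks in the 2812 one-to-one pairs of WT IM (left, in tags per kb per 1000000 library tags), and the number of pairs by the log2 ratio of H3K4me3 over H3K27me3 density (right), both coloured by the geometry of the pair. The right-hand mode, with 364 pairs at its highest bar, consists almost wholly of H3K27me3 peaks inside H3K4me3 peaks.

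Of the 2812 one-to-one pairs, 887 had a ratio over 3 (31.5%) and 720 had a ratio of at most 1 (25.6%). Those over 3 had a median H3K4me3 density of 16.0 and a median H3K27me3 density of 4.42, and 879 of them had H3K27me3 inside H3K4me3. Those at or below 1 had 5.28 for H3K4me3 and 7.27 for H3K27me3. Across all one-to-one pairs Spearman's rho between the densities was −0.49. Within the classes it was −0.00 for H3K27me3 inside (1372 pairs), 0.18 for partial overlap (967 pairs) and 0.28 for H3K4me3 inside (473 pairs). The value over all pairs was not matched within any class. With H3K27me3 inside, the H3K27me3 densities spanned little, which limits what rho can show there. These are descriptions across sites of the same pair of libraries, and both densities of a pair share the copy number and mappability of the region.

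Summits of both marks lay close together, mainly in the nested pairs. The median distance between summits was 205 bp over the 2910 pairs (interval 188 to 228), and 1007 pairs had summits within 100 bp (34.6%). The fragment size used in peak calling was 200 bp, so shorter distances are at the limit of resolution. With H3K27me3 inside H3K4me3 the median distance was 106 bp, and 28 of the 1389 pairs were over 1 kb apart (2.02%). With H3K4me3 inside H3K27me3 it was 252 bp, with 109 of 495 pairs over 1 kb apart (22.0%). With partial overlap it was 945.5 bp, and 492 of 1026 pairs were over 1 kb apart (48.0%).

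In 2137 pairs each summit lay inside the other peak (73.4%), and in 399 pairs neither did (13.7%). Only partial overlaps can have neither, because the summit of an inner peak always lies in the outer one. The 399 were 38.9% of the 1026 partial overlaps. Nesting itself keeps the centre of an inner peak away from the end of the outer one, the more so the longer it is. Inner H3K27me3 peaks had a median of 52.8% of the length of the H3K4me3 peak, and inner H3K4me3 peaks 50.7% of the length of the H3K27me3 peak. The centre of an inner H3K27me3 peak was at 86.6% of the way from the nearer end of the H3K4me3 peak to its middle (median of 1389), and that of an inner H3K4me3 peak at 77.9% (median of 495). An inner H3K27me3 peak began a median of 310 bp from the nearer end of the H3K4me3 peak.

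Most peaks with a single mark had the other mark more than 1 kb away. From an H3K4me3-only peak to the nearest H3K27me3 peak the median was 11795 bp (interval 11551 to 12048), and from an H3K27me3-only peak to the nearest H3K4me3 peak it was 5839 bp (interval 5666 to 6090). H3K4me3 peaks were the more numerous, which by itself shortens the second distance. Of the 19294 H3K4me3-only peaks, 972 had H3K27me3 within 1 kb (5.04%), and of the 8275 H3K27me3-only peaks, 954 had H3K4me3 within 1 kb (11.5%). H3K27me3 on both sides within 1 kb was seen at 11 H3K4me3-only peaks, and H3K4me3 on both sides at 25 H3K27me3-only peaks.

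H3K27me3 peaks just outside the overlap rule resembled the distant ones and those of partial overlaps more than the overlapping ones as a whole. H3K27me3 peaks separated from H3K4me3 by at most 500 bp numbered 539 and had a median length of 1993 bp and a density of 5.96. Over 5 kb away the 4563 peaks had 2055 bp and 6.10, whereas the overlapping peaks had 1351.5 bp and 5.09. The overlapping peaks differed by geometry. In one-to-one pairs with a partial overlap the H3K27me3 medians were 1968 bp and 6.18, close to those within 500 bp. They were 1061 bp and 4.49 for H3K27me3 inside H3K4me3, and 2885 bp and 7.00 for H3K4me3 inside H3K27me3. For H3K4me3 the 546 peaks within 500 bp of H3K27me3 had 1443 bp and a density of 8.40, against 1560 bp and 9.73 over 5 kb away, and 1736 bp and 9.49 with overlap. The shortest overlap was 1 bp, on chromosome 10 between an H3K4me3 peak from 22943270 to 22945493 and an H3K27me3 peak from 22945493 to 22946300. The smallest gap was also 1 bp, on chromosome 7 between an H3K4me3 peak from 7942381 to 7943704 and an H3K27me3 peak ending at 7942379.

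Both-mark peaks also lay farther from peaks of their own mark. The median distance to the next H3K4me3 peak was 6031 bp with both marks and 5005.5 bp alone. That to the next H3K27me3 peak was 11946 bp with both marks and 8041 bp alone.

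**Figure D4:**
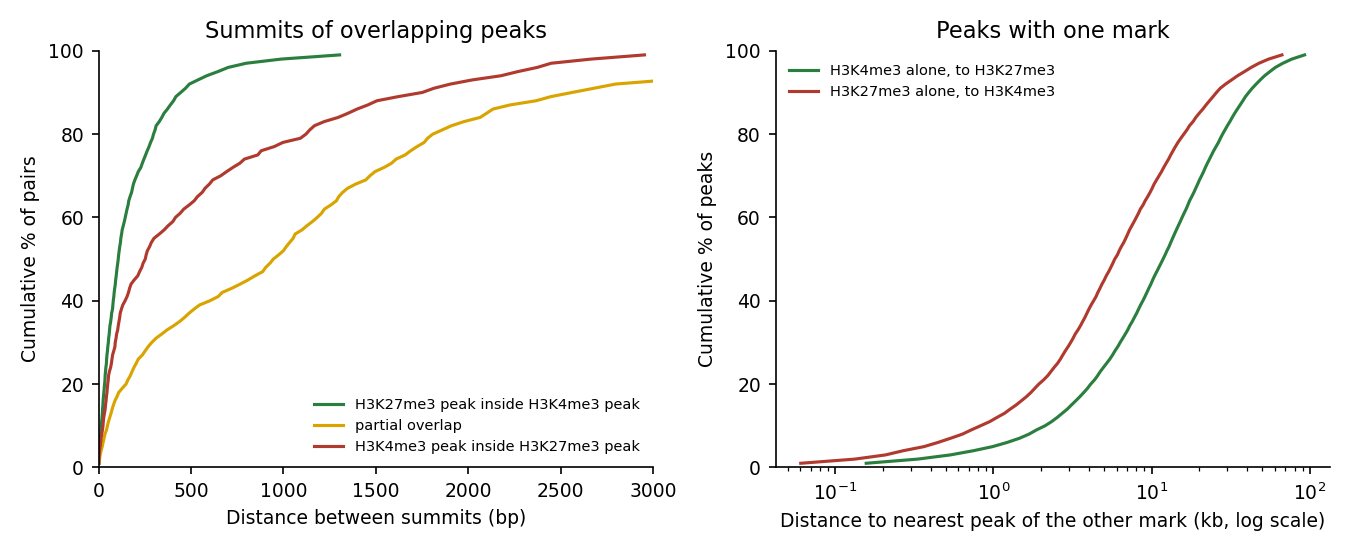
Cumulative share of overlapping WT IM pairs by distance between summits in bp and by geometry (left), and cumulative share of peaks with a single mark by distance to the nearest peak of the other mark in kb on a log scale (right). Medians are 106, 945.5 and 252 bp for H3K27me3 inside, partial and H3K4me3 inside, and 11.8 and 5.84 kb for H3K4me3-only and H3K27me3-only peaks.

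The H3K4me3 share with both marks was nearly constant over the chromosomes and the H3K27me3 share was not. By chromosome, 11.6% to 14.3% of H3K4me3 peaks overlapped H3K27me3. The share of H3K27me3 peaks with H3K4me3 was highest on chromosome 3, at 32.5% (interval 29.8 to 35.3%), and lowest on chromosome 11, at 18.8% (interval 16.3 to 21.4%). Chromosome 3 also had most H3K4me3 peaks per Mb, 77.4, and chromosome 11 fewest, 42.7, while H3K27me3 peaks per Mb were 30.1 and 31.4 there. Over 379 windows of 1 Mb, the third with most H3K4me3 peaks had 33.8% of its H3K27me3 peaks overlapped (1416 of 4195) and the third with fewest had 18.3% (545 of 2984). More H3K4me3 peaks by themselves raise this share, on chromosomes as in windows. The pairs with H3K27me3 inside H3K4me3 were 788 in the windows with most and 192 in those with fewest H3K4me3 peaks. Per 100 H3K27me3 peaks these were 18.8 and 6.43 pairs, and per 100 H3K4me3 peaks 7.20 and 4.76. Pairs with H3K4me3 inside H3K27me3 numbered 185 in the windows with most and 144 in those with fewest H3K4me3 peaks. These were 4.41 and 4.83 per 100 H3K27me3 peaks, and 1.69 and 3.57 per 100 H3K4me3 peaks.

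The longest overlaps joined long peaks of both marks, and the deposited folds of their H3K4me3 peaks were all below the list median of 5.99. The longest was 6876 bp, on chromosome 9 from 4704582 to 4711457, where the H3K4me3 peak had 1315 tags and a fold of 2.42. The surrounding H3K27me3 peak had 2146 tags and a fold of 2.08. A pair on chromosome 12 from 20553449 overlapped over 6642 bp and on chromosome 11 a pair from 12159587 over 6000 bp. On chromosome 1 the overlap was 5934 bp, from 16850416 to 16856349, with 1271 H3K4me3 tags and 2158 H3K27me3 tags. Its densities, 11.6 for H3K4me3 and 11.5 for H3K27me3, were nearly equal, and it alone of the 5 longest overlaps was matched in all 6 other lists. The folds of these 5 pairs ran from 2.42 to 4.39 for H3K4me3 and from 2.08 to 4.08 for H3K27me3, where 3 of the 5 exceeded the list median of 3.29.

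A few sites had high tag densities for both marks, mostly without high folds. Without a control library, both marks and a tag count raised in every library cannot be told apart at such sites. The pair with the highest joint density lay on chromosome 2, with an H3K4me3 peak from 28715032 to 28717066 at a density of 23.9 inside an H3K27me3 peak at 15.8. These values were 2.49 and 2.72 times the medians of their lists. Another such pair lay nearby from 28719315, at 21.6 for H3K4me3 and 19.3 for H3K27me3. On chromosome 1 from 16910106 to 16915248, H3K4me3 had 2060 tags and the H3K27me3 partner 2382. At the start of chromosome 4, from 854 to 2334, the folds were 10.9 for H3K4me3 and 9.86 for H3K27me3, the only pair of these 5 with both folds over 5. On chromosome 4 from 23556593 to 23560816, densities were 18.5 for H3K4me3 and 11.4 for H3K27me3. Of these 5 pairs, 4 were matched in all 6 other lists, against 583 of all 2812 one-to-one pairs (20.7%).

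The extremes of the ratio show each kind of site. The highest ratio, 5.31, lay on chromosome 11, where an H3K4me3 peak of 1419 tags from 2167967 to 2171534 contained an H3K27me3 peak of 147 tags. The H3K4me3 peak was matched in all 3 other H3K4me3 lists and the H3K27me3 peak in no other H3K27me3 list. The next, on chromosome 6 from 30993174 to 30995649, had the highest H3K4me3 density of WT IM, 24.7, and a ratio of 5.30. The lowest ratio, 0.357, lay on chromosome 7, where an H3K4me3 peak of 95 tags from 29072772 to 29074075 sat in an H3K27me3 peak of 1222 tags from 29071496 to 29076318. That H3K27me3 peak was matched in all 3 other lists of its mark, and the H3K4me3 peak in WT SAM and SDG711 RNAi IM but not in jmj703 IM. The summits farthest apart, at 6544 bp, belonged to an H3K4me3 peak at one end of an H3K27me3 peak of 7377 bp on chromosome 1 from 31795665 to 31803041.

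Of the H3K27me3 peaks that covered 2 H3K4me3 peaks, the most significant lay on chromosome 3 from 25863324 to 25866381. Its H3K4me3 peaks held 150 and 81 tags and overlapped its opposite ends. On chromosome 8 an H3K27me3 peak of 5556 bp from 27582734 held both of its H3K4me3 peaks, of 101 and 126 tags, inside.

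Strong peaks with a single mark were found as well. The most significant H3K4me3-only peak ran from 33169623 to 33172508 on chromosome 3. It had 1142 tags and a density of 21.4, with the nearest H3K27me3 peak 23959 bp away. All 5 leading H3K4me3-only peaks were at least 7135 bp from H3K27me3 and were matched in every other H3K4me3 list. Of all WT IM H3K4me3 peaks, WT SAM matched 88.8%, SDG711 RNAi IM 96.9% and jmj703 IM 86.8%, so such matches were common. The most significant H3K27me3-only peak ran from 13856532 to 13858890 on chromosome 6. It had 780 tags and a density of 14.4, with H3K4me3 at 19980 bp. The leading 5 H3K27me3-only peaks were also matched in every other H3K27me3 list, but 3 of them had H3K4me3 within 3 kb, the nearest at 1642 bp. Of all WT IM H3K27me3 peaks, WT SAM matched 68.5%, SDG711 RNAi IM 60.2% and jmj703 IM 76.8%. The 3 H3K27me3-only peaks farthest from H3K4me3, by 240186 to 262197 bp, lay together on chromosome 11 between 28363345 and 28438265. The H3K4me3-only peak farthest from H3K27me3, by 293591 bp, was on chromosome 8 from 13308455 to 13309329 and held 73 tags.

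The other lists were not used to form the pairs and show how each kind of site was listed elsewhere. In WT SAM, 57.9% of the both-mark H3K27me3 peaks had an H3K27me3 peak (1670 of 2882, interval 56.1 to 59.7%), against 72.1% of those alone (5970 of 8275) and 68.5% of all WT IM H3K27me3 peaks. In SDG711 RNAi IM the H3K27me3 shares were 44.6% with both marks and 65.6% alone, with 60.2% over all. In jmj703 IM they were 73.1% with both marks and 78.1% alone, with 76.8% over all. For H3K4me3 in WT SAM the shares were 89.6% with both marks and 88.7% alone, with 88.8% over all. In SDG711 RNAi IM the H3K4me3 shares were 94.4% with both marks and 97.3% alone, with 96.9% over all. In jmj703 IM they were 81.6% with both marks and 87.6% alone, with 86.8% over all.

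These averages concealed opposite behaviour of the geometric classes. Where H3K27me3 lay inside H3K4me3, the H3K4me3 peak was listed in WT SAM at 98.9% of 1372 pairs (interval 98.2 to 99.3%) and the H3K27me3 peak at 28.6% (interval 26.2 to 31.0%). The H3K27me3 share at these pairs came to 17.9% in SDG711 RNAi IM (246 of 1372), and jmj703 IM listed 59.6% (818 of 1372). Where H3K4me3 lay inside H3K27me3, the H3K27me3 peak was listed at 91.3% of 473 pairs in WT SAM, with 77.4% for SDG711 RNAi IM and 90.5% for jmj703 IM. The H3K4me3 share at these pairs was 75.1% in WT SAM, 85.4% for SDG711 RNAi IM and 55.0% for jmj703 IM. Set directly against the outer mark, the inner, weaker mark was listed less often elsewhere, except for inner H3K4me3 peaks in SDG711 RNAi IM. The marks differed in this share over all WT IM peaks, however. For SDG711 RNAi IM it was 96.9% for H3K4me3 and 60.2% for H3K27me3. The inner H3K4me3 peaks, at 85.4%, lay below the former, and the H3K27me3 peaks around them, at 77.4%, above the latter. For every other list, inner peaks of either class fell below the share of their own mark over all WT IM peaks. Outer peaks lay above it.

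Depth differed between these libraries. The WT IM H3K27me3 library, with 22887617 tags, was the deepest of its mark. The H3K27me3 libraries had 16321456 tags in WT SAM, 14337383 in jmj703 IM and 10502005 in SDG711 RNAi IM. The jmj703 IM H3K4me3 library had 4869161 tags. The part of depth in these shares was not tested. Of the inner H3K27me3 peaks, 28.6% were listed at 16321456 tags in WT SAM and 59.6% at 14337383 tags in jmj703 IM. At 10502005 tags in SDG711 RNAi IM it was 17.9%. With 1 library each, depth cannot be told apart from tissue or genotype.

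**Figure D5:**
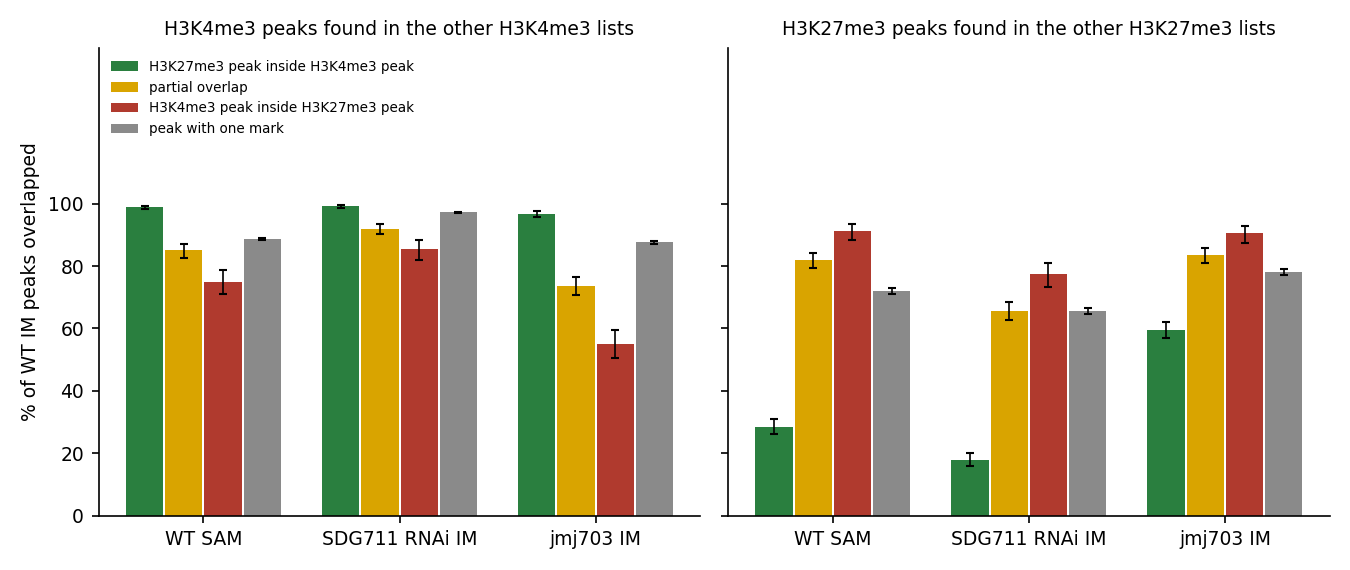
Share of WT IM H3K4me3 peaks (left) and H3K27me3 peaks (right) overlapped by a peak of the same mark in the other tissue or genotypes, by geometry of the one-to-one pair and for peaks with a single mark; bars are 95% Wilson intervals. H3K27me3 peaks inside H3K4me3 peaks are at 28.6% in WT SAM, 59.6% in jmj703 IM and 17.9% in SDG711 RNAi IM, the lowest of each group.

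Both marks together were listed in WT SAM at 1407 of the 2812 one-to-one pairs (50.04%), and H3K4me3 without H3K27me3 at 1128 (40.1%). H3K27me3 without H3K4me3 was listed there at 209 pairs (7.43%) and neither mark at 68 (2.42%). Of the 1128, 972 were pairs with H3K27me3 inside H3K4me3. In SDG711 RNAi IM both marks were listed at 1156 pairs (41.1%), and jmj703 IM listed both at 1647 (58.6%). All 3 other tissues or genotypes listed both marks at 583 pairs (20.7%). These were 359 of the 967 partial overlaps (37.1%), 145 of the 473 pairs with H3K4me3 inside (30.7%) and 79 of the 1372 with H3K27me3 inside (5.76%). An H3K27me3 peak in WT IM and in no other H3K27me3 list was found at 488 of the 2812 pairs (17.4%). It was found at 432 of the 1372 with H3K27me3 inside (31.5%) and at 8 of the 473 with H3K4me3 inside (1.69%). Of the 8275 H3K27me3-only peaks, 645 were in no other list (7.79%). The H3K27me3 peaks inside H3K4me3 were nearer the cutoff, with a median −log10 p of 7.74 against 14.3 for H3K27me3-only peaks.

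Length moved with these shares. Among H3K27me3 peaks under 1000 bp, WT SAM listed 27.8% of those with both marks (156 of 562) and 51.7% of those alone (328 of 635). From 1000 to under 1500 bp the shares were 44.0% with both marks and 56.3% alone. From 1500 to under 2500 bp they were 76.7% with both marks and 71.6% alone, and from 2500 bp upward 90.1% with both marks and 87.2% alone. The lower H3K27me3 share of both-mark peaks in WT SAM was thus found below 1500 bp. In SDG711 RNAi IM it was found there too, with 11.6% of those under 1000 bp listed with both marks and 36.5% alone. In jmj703 IM these shares were 46.6% with both marks and 52.0% alone, and from 1000 to under 1500 bp 69.1% with both marks and 64.5% alone.

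The same pairing within the other tissue and genotypes gave different mixtures of the classes. H3K27me3 inside H3K4me3 made up 47.7% of pairs in WT IM, 52.3% in jmj703 IM, 24.1% in SDG711 RNAi IM and 29.9% in WT SAM. Ratios over 3 were found at 31.5% of one-to-one pairs in WT IM, 45.9% in jmj703 IM, 5.61% in SDG711 RNAi IM and 0.172% in WT SAM. H3K4me3 peaks held 38.7% of library tags in WT IM, 37.7% in jmj703 IM, 41.1% in SDG711 RNAi IM and 24.4% in WT SAM. H3K27me3 peaks held 18.3%, 19.4%, 18.9% and 17.1% of the tags of their libraries in the same order. With 1 library per mark, tissue and genotype, differences between these sets cannot be told apart from differences between libraries.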

How the data were processed

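Chromatin of hand-dissected apices was fixed in 1% formaldehyde and sheared to 200 to 750 bp, per the labels' protocols. Peak calling by the authors, per the file headers, used MACS 1.4.0rc2 on each library alone, on an alignment whose name marks removal of duplicates, without a control library, at a p cutoff of 1e-05 and an effective genome size of 401 Mb. The submitters' processing notes also list Trimmomatic 0.32, Bowtie2 2.1.0, Cufflinks 2.2.1 and TopHat2 2.0.13, with no role or order. A genome build was not found in the sources used here. The deposited tag count of a peak is raw. The deposited score is 10 times the −log10 of its p, so −log10 p is the score divided by 10. The deposited fold is the ratio of peak height to the background around it in the same library. The deposited length and summit are in bp. Score and fold are the authors' values and were used within a list, apart from p medians set side by side and ratios of folds.

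Overlaps (at least 1 bp), edge-to-edge distances, summit distances and densities were computed in Python 3.11.15 with pandas 2.3.3 and numpy 2.4.6, and intervals with scipy 1.17.1. Starts below position 1 were set to 1. Overlap and distance code was tested on simulated data. No test of a difference was possible. Named regions were taken by rank: 5 longest overlaps, 5 pairs of highest joint density (the smaller of both densities relative to their list medians), 3 at either end of the ratio, 3 largest summit distances, 3 H3K27me3 peaks over most H3K4me3 peaks, 5 most significant and 3 most isolated peaks with a single mark, and 3 at either side of the overlap threshold; those with most to show are printed. The members and rules were chosen with earlier results of these data known, and the classes by geometry and the density ratio bins after the values were seen.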

Additional observations from a re-analysis of the deposited data

Results flagged for a closer look

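Several values lay on opposite sides of 1 in WT IM and in another tissue or genotype, some of them close to 1. These differences were not tested, since each had 1 library per mark. The median density ratio of one-to-one pairs, H3K4me3 over H3K27me3, was 1.66 in WT IM, 0.962 in WT SAM and 0.867 in SDG711 RNAi IM. When scaled to the tags inside peaks it was 0.787 in WT IM, 0.676 in WT SAM and 0.398 in SDG711 RNAi IM, all below 1. In jmj703 IM the ratio was 2.75 by library tags and 1.41 by tags inside peaks. With the second scaling it thus lay on the other side of 1 from WT IM. The H3K27me3 density of both-mark peaks over that of peaks alone was 0.850 in WT IM and 1.01 in SDG711 RNAi IM. With the deposited fold in place of density it was 1.00 in WT IM and 1.07 in SDG711 RNAi IM. The H3K4me3 length ratio of both-mark peaks over peaks alone was 1.11 in WT IM and 0.955 in SDG711 RNAi IM. The H3K4me3 density ratio of both-mark peaks over peaks alone was 0.985 in WT IM and 1.25 in jmj703 IM. The WT IM medians behind 0.985 had overlapping intervals, 9.18 to 9.86 with both marks and 9.59 to 9.69 alone. By deposited fold it was 0.913 in WT IM and 0.955 in jmj703 IM, both below 1.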

How the results depend on the processing

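No paired analysis was possible because each mark had 1 library in WT IM. Of 71 alternative values, 32 kept their value within its interval (or within 1.5 times where it had none), 33 moved and 6 changed side of 1. With p at most 1e-10 in both lists, 397 of the 1389 pairs with H3K27me3 inside H3K4me3 were left (28.6%), 620 of the 1026 partial overlaps (60.4%) and 235 of the 495 with H3K4me3 inside (47.5%). H3K4me3 peaks with H3K27me3 then numbered 1250, or 6.28% of H3K4me3 peaks. The H3K27me3 share was 17.6% and the sequence under both marks 2.90% of that under either, against 5.36% with all peaks. The median overlap was 1226 bp, the summit distance 309.5 bp, the nested share 50.5% and the density ratio 1.27. Distances of peaks alone were 18695 bp from H3K4me3 and 6532.5 bp from H3K27me3. With an overlap of at least 200 bp, the shares were 12.1% of H3K4me3 and 24.0% of H3K27me3 peaks. The median overlap was then 1083 bp, the summit distance 172 bp, the nested share 69.8%, the distance from H3K27me3-only peaks 5649 bp and the H3K27me3 share listed in SDG711 RNAi IM 42.1%. An overlap of at least 50% of the shorter peak gave 11.2% of H3K4me3 and 22.3% of H3K27me3 peaks, and joining peaks at most 1 kb apart gave 27.2% of H3K27me3 peaks. The median density ratio of all one-to-one pairs was 1.57 without the 1% of densest peaks and 0.787 when scaled to the tags inside peaks, and thus turned below 1. With that scaling, the ratio of partial overlaps was 0.536, and by fold that of H3K4me3 inside H3K27me3 was 1.12. Also by fold, the H3K27me3 value of both-mark peaks over peaks alone turned above 1 in WT SAM, at 1.03, and in jmj703 IM, at 1.06, and the H3K4me3 value turned below 1 in jmj703 IM, at 0.955. The cause of these shifts was not tested. Alternatives for the geometric classes and for the other tissue and genotypes were chosen after seeing the data. No setting varied the depth.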
